A study of Mus musculus with 15 samples.

Results

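Il5, Il9, Csf2 and Il3 are 4 cytokine genes that were followed by name through 15 RNA-seq libraries of cells sorted from mouse lung. They are 4 of the 21110 gene rows of the deposited expression table. The study compared basophils, eosinophils and natural helper cells (NHC, now counted among the group 2 innate lymphoid cells) from mice given the protease allergen papain with the same cells from naive mice. Papain groups came from mice that received 50 µg of papain per mouse into the nose on 3 consecutive days. These were NHC labelled 3'UTRKO (1 library), NHC without that label (2 libraries), basophils (2 libraries), CD11c+ eosinophils (2 libraries) and CD11c- eosinophils (2 libraries). Naive groups came from untreated mice and were NHC, basophils and eosinophils, with 2 libraries each. All libraries are labelled as lung of the C57BL6/J strain. Which gene's 3' untranslated region (UTR) the 3'UTRKO label refers to is not said, the naive eosinophil labels do not give CD11c, and no label gives an age or says whether the 2 libraries of a group came from separate mice. The p-values therefore measure the spread between these libraries, which may be technical. The gates were lineage-negative cells with Thy1.2, IL7Ra and CD25 for NHC, cells with FceR1 and CD49b but no c-kit for basophils, and SiglecF+ Gr1lo cells without autofluorescence for eosinophils.

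IL-5, IL-3 and GM-CSF (the product of Csf2) act through receptors that pair a private alpha chain with a shared beta chain, and they drive the production, survival and activation of eosinophils, basophils and other myeloid cells. IL-9 uses its own receptor chain together with the common gamma chain and acts on mast cells, lymphocytes and epithelium. In the lung, innate lymphoid cells are a known early source of IL-5 after exposure to a protease allergen. Messenger RNAs of cytokines of this kind are often short-lived, and repeats of the pentamer AUUUA in the 3' UTR are a known mark of such transcripts.

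Il5, Csf2 and Il3 lie on chromosome 11, where the order of named landmarks runs Il4, Il13, Rad50, Il5, Irf1, Csf2, Il3. There is 1 gene entry between Csf2 and Il3 and there are 17 between Il5 and Csf2 in the RefSeq annotation, and Il9 lies on chromosome 13. A stretch of 30 bases from each 3' UTR is shown because the AUUUA pentamer is the sequence feature that all 4 transcripts share. Each is the stretch with the most pentamers, written as RNA in the sense of the gene, read from the GENCODE annotation of GRCm38, with every AUUUA in capitals (overlapping pentamers run together):
Il5 (chr11:53724105-53724134, + strand): gauaccauaugcuguuuccAUUUAuAUUUA
Csf2 (chr11:54247329-54247358, - strand): uuuuuaaauAUUUAUUUAUUUAUUUAUUUA
Il3 (chr11:54265307-54265336, - strand): cuuuaugccaucaaaugucuuaucaAUUUA
Il9 (chr13:56479329-56479358, - strand): agaugcuAUUUAuucuAUUUAuugaAUUUA

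The Csf2 3' UTR held 9 pentamers in 317 bases, or 2.839 per 100 bases, and 0.0411% of 19469 genes with a 3' UTR of at least 100 bases had that density or more. The Il5 3' UTR held 7 in 1092 bases (0.641 per 100 bases, reached by 4.18% of genes). The Il9 3' UTR held 3 in 86 bases (3.488 per 100 bases, reached by 0.0154%), and at 86 bases it is shorter than any of the genes it was set against. The Il3 3' UTR held 1 in 101 bases (0.99 per 100 bases, reached by 0.986%), although RefSeq's Il3 gene runs 218 bases beyond this end. The median gene had 0.132 per 100 bases. The pentamer count was added after the expression values had been seen, and it describes the sequence and not the stability of the RNA.

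Values in the table are whole numbers, taken here as FPKM (fragments scaled by transcript length and by the mapped fragments of the library) rounded by the authors, so levels may be compared between genes. FPKM sums ranged from 374841 to 570208 per library and 9995 to 13049 genes were above 0. The number of reads behind a value is unknown. Differences are on the log2(FPKM + 1) scale, which understates changes of genes with low values, and they come from limma's moderated test with Benjamini-Hochberg adjustment over 14257 genes and a threshold of 0.05. Defining genes of each label were found in its libraries, beside markers of other cells. The summed level of 10 NHC markers was 1412 to 2036 FPKM in the 5 NHC libraries, against 109 to 394 FPKM in the other 10. The 9 eosinophil markers summed to 1234 and 1284 FPKM in CD11c+, 976 and 964 FPKM in CD11c- and 715 and 2919 FPKM in naive eosinophils. Neutrophil markers, 5 in number, summed to 12297 and 14150, 9139 and 6437, and 16548 and 8738 FPKM in the same order. The neutrophil sum was thus above the eosinophil sum in each eosinophil library. Papain basophil libraries had 646 and 2028 FPKM over 9 basophil markers, and naive basophil libraries had 6423 and 5596 FPKM. Both papain basophil libraries stood apart from the naive ones in markers of other cells. The 8 macrophage markers summed to 11321 and 278 FPKM in papain and 156 and 46 FPKM in naive basophils. The 5 neutrophil markers summed to 3179 and 7258 FPKM in papain and 231 and 511 FPKM in naive basophils, so that both papain libraries held more neutrophil than basophil marker FPKM. The 6 epithelial markers summed to 20210 and 33804 FPKM in papain and 6605 and 8699 FPKM in naive basophils. In bulk samples of sorted cells, fewer cells of a type and less RNA per cell cannot be told apart.

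Il5, the eosinophil growth and activation factor, was the most abundant of the 4 transcripts in each NHC library and was far lower in the other cells. It had 1443 FPKM in the 3'UTRKO papain NHC library, 2379 and 2350 FPKM in papain NHC, and 501 and 2283 FPKM in naive NHC. In the other cells it had 12 and 9 FPKM in papain basophils, 16 and 14 FPKM in papain CD11c+ eosinophils and 25 and 15 FPKM in papain CD11c- eosinophils. It was listed at 0 in both naive basophil and both naive eosinophil libraries. The lowest NHC library was thus far above the highest library of any other cell type, and the papain libraries of basophils and eosinophils did not overlap their naive ones. In papain NHC, Il5 ranked 19 and 23 among the genes above 0 of its library, and in naive NHC it ranked 140 and 45.

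Csf2, which encodes the myeloid growth factor GM-CSF, was also an NHC transcript but was present in basophil libraries of both states. It had 353 FPKM in the 3'UTRKO papain NHC library, 242 and 274 FPKM in papain NHC, and 466 and 750 FPKM in naive NHC. Basophils had 33 and 64 FPKM after papain and 27 and 35 FPKM in naive mice. Eosinophils had 8 and 1 FPKM in the CD11c+ papain group and 5 and 5 FPKM in the CD11c- papain group, and naive eosinophils were listed at 0 in both libraries. Every NHC library was above every basophil library, and every basophil library was above every eosinophil library, while the 2 basophil groups overlapped each other. Naive NHC, at 608 ± 201 FPKM (SD, n = 2), were the highest group, above papain NHC at 258 ± 22.6 FPKM.

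Il3, a growth factor for basophils, mast cells and blood progenitors, was also highest in naive NHC, at a much lower level than Csf2, with papain NHC next and the 3'UTRKO library lowest of the NHC groups. The 3'UTRKO papain NHC library had 22 FPKM, papain NHC had 30 and 25 FPKM, and naive NHC had 38 and 77 FPKM. The first naive basophil library had 2 FPKM, and Il3 was listed at 0 in the second, in both papain basophil libraries and in all 6 eosinophil libraries. Il3 transcript was therefore at 22 FPKM or more in each NHC library and at 2 FPKM or less in each other library.

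Il9, a cytokine of type 2 lymphocytes that supports mast cells and epithelial mucus production, was close to 0 throughout. It had 6 FPKM in the 3'UTRKO papain NHC library, 2 and 4 FPKM in papain NHC, and 1 and 2 FPKM in naive NHC. Papain basophils had 2 and 0 FPKM, naive basophils had 1 and 0 FPKM, and all 6 eosinophil libraries were listed at 0. Apart from the 3'UTRKO library, neighbouring groups in this order overlapped, and a step of 1 FPKM is as fine as the rounded values go.

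**Figure D1:**
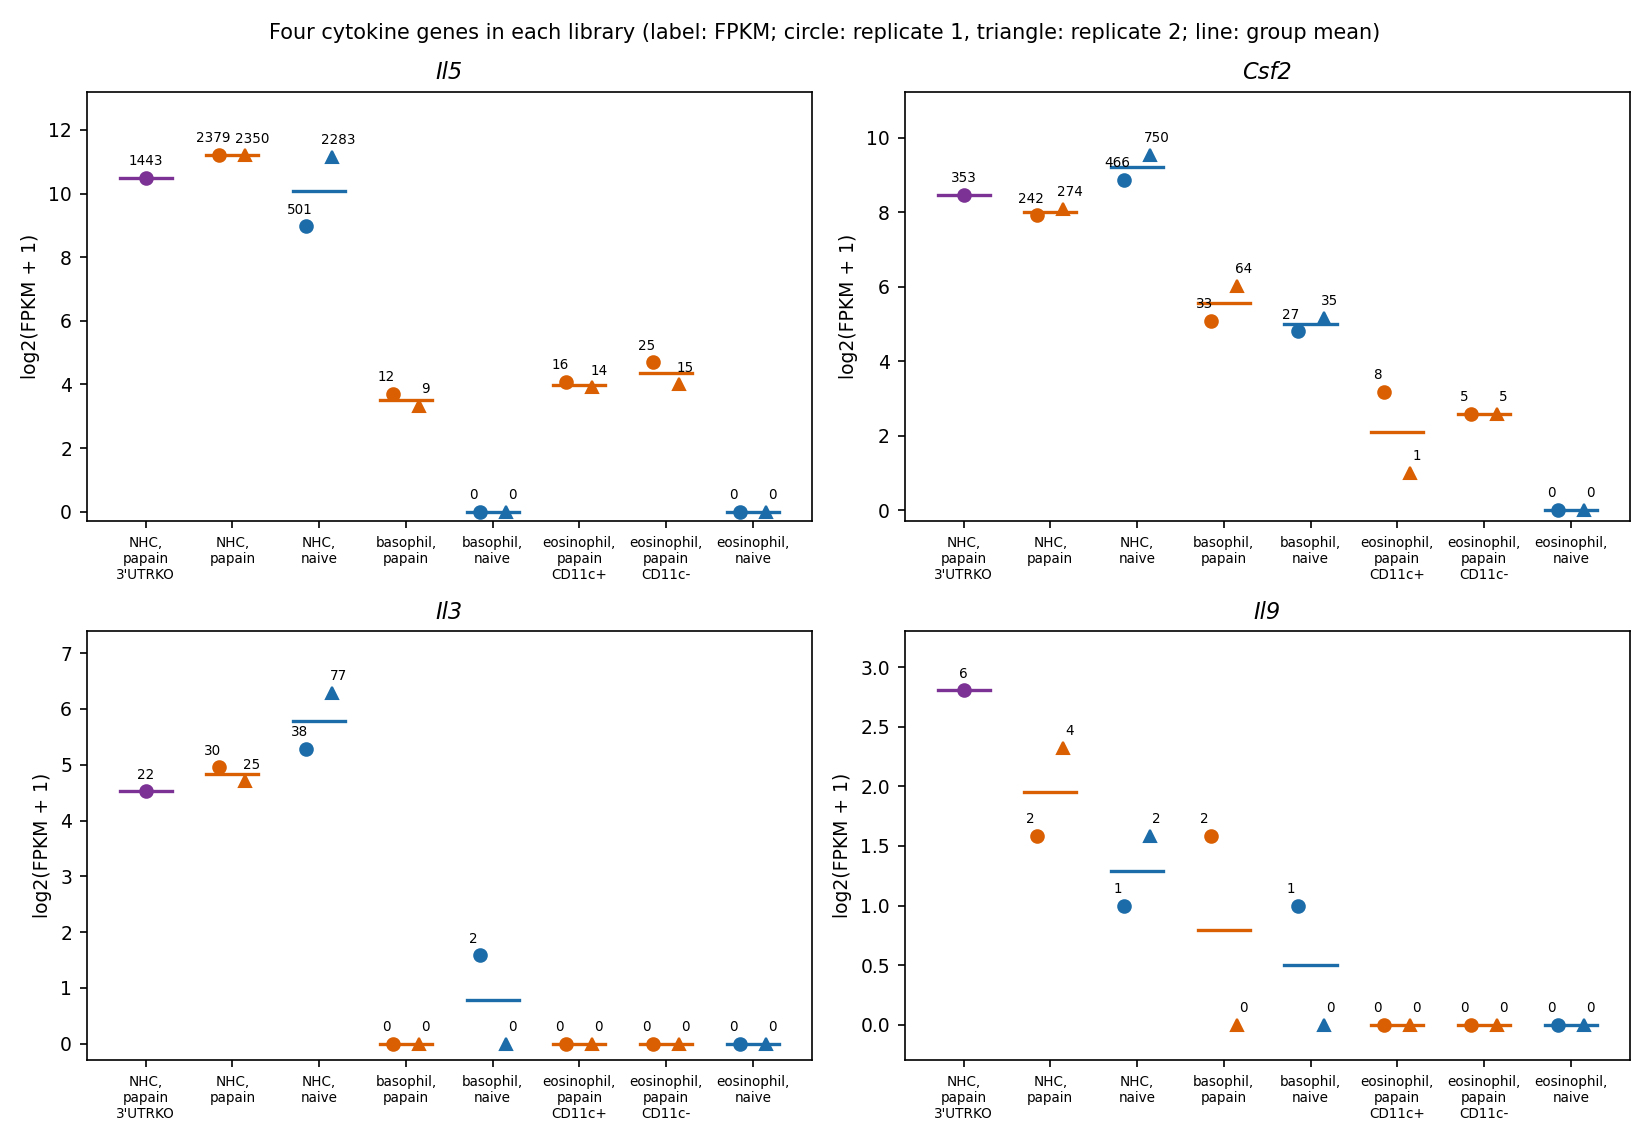
Each panel plots 1 cytokine gene on a log2(FPKM + 1) axis by group, with circles for library 1, triangles for library 2, the FPKM printed beside each point and a line at the group's mean of the log2 values. NHC libraries sit highest for Il5, Csf2 and Il3, Csf2 also stands at 27 to 64 FPKM in basophils, and Il9 is at 6 FPKM or less in every library.

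Across the 8 groups, limma's moderated F test passed for all 4 genes, in a table where 44% of genes passed. The adjusted p was 1.31e-05 for Il5, 7.78e-05 for Csf2, 9.57e-05 for Il3 and 0.0256 for Il9. The Il9 call was lost when any of 7 libraries was left out.

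In NHC, none of the 4 genes passed the test between papain and naive mice, where 0.786% of genes passed. Il5 was 1.14 ± 0.57 (SE) higher in papain than in naive NHC on the log2 scale, with a limma adjusted p of 0.518. The naive libraries alone spanned 501 to 2283 FPKM, and without the second of them the Il5 difference was 2.24 and passed with an adjusted p of 0.0124. Csf2 differed by -1.20 ± 0.60 (adjusted p = 0.530) and Il3 by -0.96 ± 0.49 (adjusted p = 0.534). For both, each papain library lay below each naive library. The T-cell markers as a sum lay the same way in these libraries. The 10 markers summed to 169 and 203 FPKM in papain NHC and 267 and 270 FPKM in naive NHC, with all 10 above 0 in each library and none passing. Cd8a, a chain of the CD8 coreceptor, had 3 and 5 FPKM in papain NHC, against 16 and 17 FPKM in naive NHC. Cd28, Cd5, Cd6 and Trat1 of the same list went the other way in the mean. They had 9, 5.5, 6 and 10 FPKM in papain NHC, against 7.5, 4, 3.5 and 7 FPKM in naive NHC. The part of T cells in the Csf2 and Il3 values was not tested. Il9 differed by 0.66 ± 0.52 (adjusted p = 0.736), with overlapping groups.

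The balance between the cytokines also varied among the NHC libraries. The ratio of Il5 to Csf2 FPKM was 4.09 in the 3'UTRKO library, 9.83 and 8.58 in papain NHC, and 1.08 and 3.04 in naive NHC. The ratio of Il5 to Il3 was 65.6 in the 3'UTRKO library, 79.3 and 94.0 in papain NHC, and 13.2 and 29.6 in naive NHC. In both ratios the papain libraries lay above the naive ones, with the 3'UTRKO library between them. The ratio of Csf2 to Il3 was 16.05 in the 3'UTRKO library, 8.07 and 10.96 in papain NHC, and 12.3 and 9.74 in naive NHC, so that papain and naive libraries overlapped. These ratios were computed after the levels had been seen and were not tested.

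**Figure D2:**
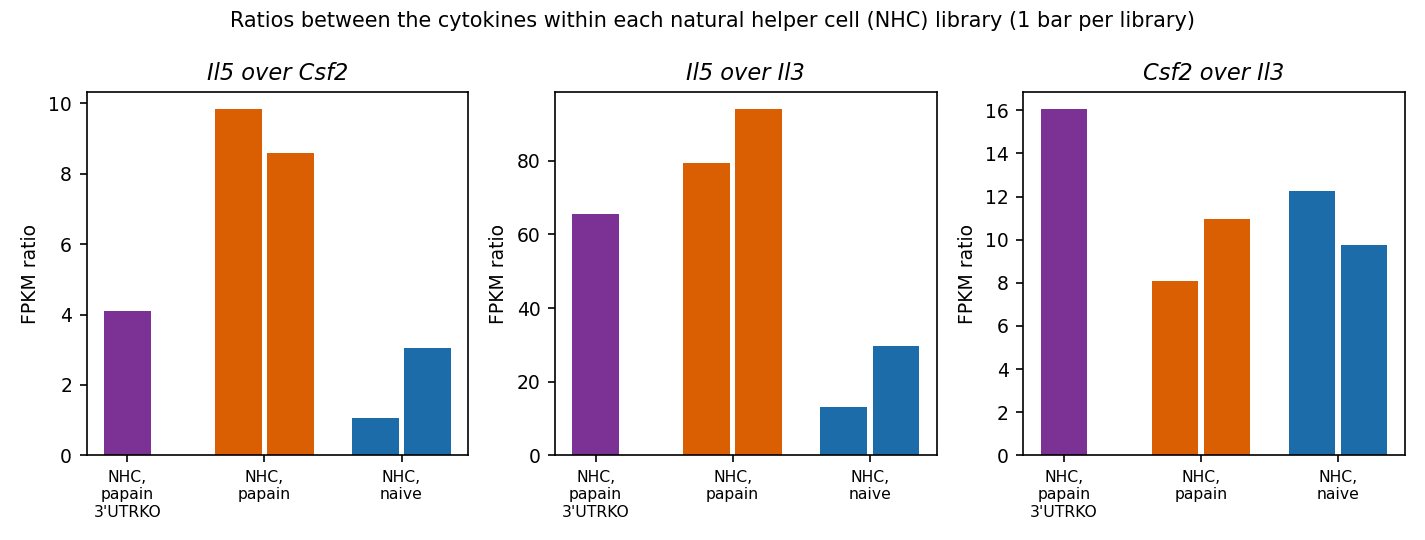
Each bar is the ratio of 2 FPKM values within 1 NHC library, grouped as 3'UTRKO papain, papain and naive, on linear axes that start at 0. Il5 over Csf2 and Il5 over Il3 are higher in both papain libraries than in both naive ones, whereas Csf2 over Il3 overlaps.

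The 3'UTRKO NHC library has no replicate, and its comparison with papain NHC takes the spread from the other groups. None of the 4 genes passed, where 0.568% of genes did. Il5 was lower in 3'UTRKO than in papain NHC by the fitted difference of -0.71 ± 0.69 (limma adjusted p = 0.919), and Il3 by -0.30. Csf2 differed by 0.45 and Il9 by 0.85. A fit of these 2 groups alone sets a single library against a spread from 1 pair of libraries, at 2379 and 2350 FPKM. The adjusted p of 0.0260 it gave for Il5 supports no difference.

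In basophils, 1 of the 4 genes passed between papain and naive mice, in a comparison in which 26% of all genes passed and 22.1% passed as higher. Il5 rose after papain, at 12 and 9 FPKM against 0 and 0 FPKM in naive basophils (limma adjusted p = 0.00368), and it passed with each of the 4 libraries left out in turn. Csf2 differed by 0.57 ± 0.60 (adjusted p = 0.528), Il3 had an adjusted p of 0.269 and Il9 one of 0.736. Leaving out the second naive basophil library brought Il3 past the threshold as lower in papain basophils (adjusted p = 0.0472). The median of all genes in this comparison was 0.50 on the log2 scale, so most genes stood higher in papain basophils. Of 3705 genes that passed, 3152 were higher, whereas after quantile normalization 1428 of 3148 were higher, and the Csf2 difference became -0.0145.

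Summed fibroblast, neutrophil, macrophage, endothelial and epithelial markers stood higher in papain than in naive basophils, as Il5 did, whereas the NHC and T-cell sums overlapped. The 5 endothelial markers summed to 85 and 242 FPKM in papain and 47 and 29 FPKM in naive basophils. The 10 NHC markers summed to 394 and 109 FPKM in papain basophils and to 356 and 226 FPKM in naive basophils, with all 10 above 0 in the first library of each state and 8 of 10 in the second. Icos, a costimulatory receptor of NHC and T cells, had 114 and 0 FPKM in papain and 5 and 0 FPKM in naive basophils. Gata3, the master transcription factor of NHC, had 7 and 1 FPKM in papain and 2 and 1 FPKM in naive basophils. The 10 T-cell markers summed to 145 and 7 FPKM in papain and 74 and 3 FPKM in naive basophils, with all 10 above 0 in the first library of each state and 3 of 10 in the second. The second papain library, with 9 FPKM of Il5, had Icos and Klrg1 of the NHC list at 0, and Thy1 at 9, Il7r at 40, Il1rl1 at 33 and Rora at 3 FPKM. Of the T-cell list it had 7 genes at 0, among them Cd3d, and Cd3g at 5 FPKM. The 6 fibroblast markers summed to 705 and 210 FPKM in papain and 10 and 3 FPKM in naive basophils, and all 6 passed as higher, as did 3 of the 5 neutrophil and 3 of the 6 epithelial markers, whose sums are given above. The part of other cells in the basophil Il5 value was not tested.

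In CD11c- eosinophils, Il5 also rose relative to naive eosinophils, at 25 and 15 FPKM against 0 and 0 FPKM (limma adjusted p = 0.00690), as 1 of the 4 genes, where 2.24% of genes passed and 1.87% passed as higher. This call was lost on leaving out the first CD11c- library (adjusted p = 0.0673), the first naive library (0.0710) or the second naive library (0.0521). Csf2, at 5 and 5 FPKM against 0 and 0 FPKM, missed the threshold with an adjusted p of 0.0727. In CD11c+ eosinophils, Il5 rose with an adjusted p of 0.00368, again as 1 of the 4 genes, where 12.1% of genes passed and 9.93% passed as higher (1416 of 1730 calls, against 788 of 1538 after quantile normalization). Csf2, at 8 and 1 FPKM against 0 and 0 FPKM, had an adjusted p of 0.0558, and it passed (0.00803) without the second CD11c+ library. None of the 4 genes differed between CD11c+ and CD11c- eosinophils, where 0.0561% of genes passed. The 2 papain eosinophil groups were compared with the same naive libraries.

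Summed T-cell, B-cell, fibroblast and epithelial markers and the median NHC marker stood higher in the papain eosinophils, whereas the NHC sums overlapped. The 10 NHC markers summed to 258 and 299 FPKM in CD11c+, 314 and 310 FPKM in CD11c- and 210 and 332 FPKM in naive eosinophils. Ptprc, a gene of leukocytes at large, gave 168 and 244 FPKM of the naive sums. It gave 121 and 145 FPKM in CD11c+ and 182 and 153 FPKM in CD11c- eosinophils. The median of the 10 markers was 8.5 and 11 FPKM in CD11c+ and 4 and 9 FPKM in CD11c- eosinophils. In naive eosinophils the median was 0.5 and 1.5 FPKM. Among the NHC markers, Thy1, Gata3, Icos and Rora were above 0 in every papain eosinophil library and at 0 in both naive ones. Il2ra was also higher in every papain library, whereas Il7r, Klrg1, Il17rb and Il1rl1 overlapped between papain and naive eosinophils. Il7r had 13 and 13 FPKM in CD11c+, 5 and 10 FPKM in CD11c- and 2 and 10 FPKM in naive eosinophils. Klrg1 had 1 and 0, 3 and 3, and 1 and 1 FPKM in the same order. The 10 T-cell markers summed to 93 and 90 FPKM in CD11c+, 20 and 104 FPKM in CD11c- and 2 and 1 FPKM in naive eosinophils. The CD11c- library with the most Il5 (25 FPKM) was the papain library with the lowest T-cell sum (20 FPKM). The 6 B-cell markers summed to 149 and 165 FPKM in CD11c+, 89 and 238 FPKM in CD11c- and 49 and 37 FPKM in naive eosinophils. The 6 fibroblast markers summed to 530 and 484 FPKM in CD11c+, 350 and 221 FPKM in CD11c- and 1 and 3 FPKM in naive eosinophils. The 6 epithelial markers summed to 9713 and 8212 FPKM in CD11c+, 6357 and 8870 FPKM in CD11c- and 706 and 1797 FPKM in naive eosinophils. The part of these cells in the eosinophil Il5 and Csf2 values was not tested.

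**Figure D3:**
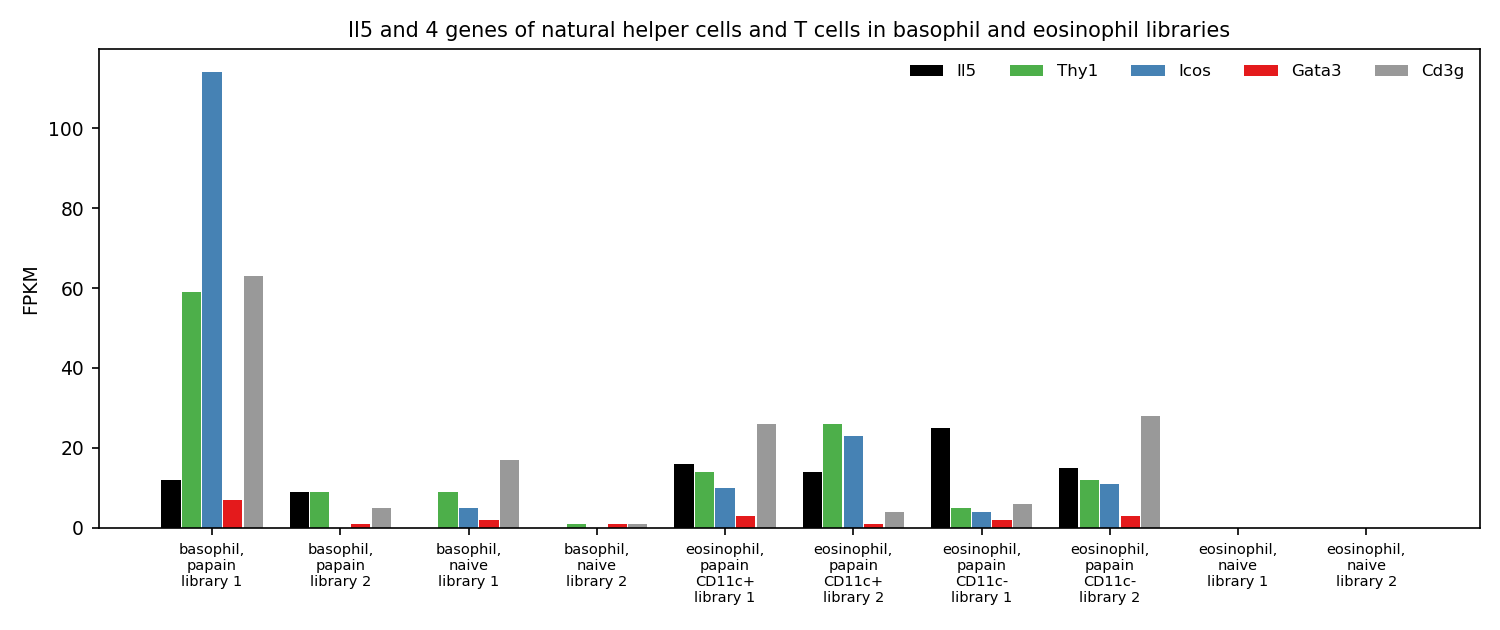
Bars give the FPKM of Il5 and of Thy1, Icos, Gata3 and Cd3g, genes of NHC or T cells, in each basophil and eosinophil library on a linear axis from 0. Il5 is at 9 to 25 FPKM in the 6 papain libraries and at 0 in the 4 naive ones, and Icos is at 114 FPKM in the first papain basophil library but 0 in the second.

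Between cell types, Il5, Csf2 and Il3 were higher in NHC than in basophils or eosinophils in both states. In naive mice, 3 of the 4 genes passed against basophils, where 20.6% of genes passed. Csf2 was 4.22 ± 0.60 higher in naive NHC than in naive basophils on the log2 scale (limma adjusted p = 0.00171), Il3 was 4.99 ± 0.49 higher (adjusted p = 0.000256), and Il5, listed at 0 in the basophils, had an adjusted p of 1.11e-05. The Il3 call was lost when only these 2 groups were fitted (adjusted p = 0.0656). The same 3 genes passed against naive eosinophils, all listed at 0 there, where 28.1% of genes passed. The adjusted p was 8.68e-06 for Il5, 1.87e-05 for Csf2 and 6.14e-05 for Il3. Il9 did not pass in either comparison (adjusted p = 0.325 against basophils and 0.0962 against eosinophils).

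After papain the NHC stayed far above the other cells in Il5, Csf2 and Il3, with the largest log2 difference among the 4 genes for Il5. Against papain basophils, where 19.7% of genes passed, 3 of the 4 genes did. Il5 was 7.70 ± 0.57 higher in papain NHC (limma adjusted p = 0.000217), Csf2 was 2.46 ± 0.60 higher (adjusted p = 0.0243), and Il3, listed at 0 in the basophils, had an adjusted p of 0.000446. The Csf2 call was lost on leaving out any of the 4 libraries compared. Against CD11c+ eosinophils (17.6% of genes passed) and CD11c- eosinophils (16.6%), all 4 genes passed. Il5 was 7.21 higher than in CD11c+ eosinophils and 6.86 higher than in CD11c- eosinophils, and Csf2 was 5.93 and 5.43 higher in the same order. Il9, at 2 and 4 FPKM in papain NHC against 0 in those eosinophils, had an adjusted p of 0.0317 against CD11c+ and 0.0325 against CD11c- eosinophils. Both Il9 calls were lost on leaving out either papain NHC library or either library of the eosinophil group compared, and both were lost when only the groups compared were fitted, as was the Csf2 call against CD11c+ eosinophils.

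Csf2 was the only one of the 4 genes to pass between basophil and eosinophil libraries. In naive mice it passed, as 1 of the 4 genes, at 27 and 35 FPKM in basophils against 0 and 0 FPKM in eosinophils (limma adjusted p = 0.000818), where 14% of genes passed. After papain, Csf2 was 2.97 ± 0.60 higher in basophils than in CD11c- eosinophils (adjusted p = 0.0179; 11.4% of genes passed). It was 3.47 ± 0.60 higher in papain basophils than in CD11c+ eosinophils (adjusted p = 0.0120; 6.26% of genes passed). Both calls after papain were lost when only the groups compared were fitted and on leaving out the second papain basophil library (adjusted p = 0.103 and 0.0843), and the one against CD11c- eosinophils also without either CD11c- library (0.0907 and 0.0960). Il5 did not pass between papain basophils and either eosinophil group, with differences of -0.84 (adjusted p = 0.369) from CD11c- and -0.49 (adjusted p = 0.626) from CD11c+ eosinophils. The 6 mast-cell markers summed to 155 and 4 FPKM in papain and 294 and 358 FPKM in naive basophils. In the eosinophil libraries they summed to 15 to 37 FPKM. The part of mast cells in the basophil Csf2 values was not tested.

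Whether papain acted differently on a gene in different cells was tested as the difference between responses. None of the 4 genes passed for NHC minus basophils, where 6.75% of genes passed, for NHC minus CD11c- eosinophils, where 1.21% passed, or for basophils minus CD11c- eosinophils, where 2.36% passed. The nearest was Csf2 for NHC minus CD11c- eosinophils, at -3.78 ± 0.85 (limma adjusted p = 0.0949), which passed when only those groups were fitted (0.00351). The Csf2 values of papain libraries lay below both naive libraries in NHC and above both in CD11c- eosinophils, and neither of these differences passed on its own (adjusted p = 0.530 and 0.0727). Il5 gave -3.21 ± 0.80 in the same comparison (adjusted p = 0.129) and -2.37 ± 0.80 for NHC minus basophils (adjusted p = 0.119). Without the first naive NHC library both passed, at -4.30 (adjusted p = 0.0111) and -3.46 (adjusted p = 0.00579).

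Transcripts of most receptor chains were found in the basophils and eosinophils, where those of Il5 and Il3 were low or listed at 0. Il5ra, the private IL-5 chain, had 7 and 2 FPKM in CD11c+, 9 and 9 FPKM in CD11c- and 14 and 16 FPKM in naive eosinophils, and 2 FPKM or less in every other library. Il5ra fell in CD11c+ eosinophils relative to naive ones by 1.70 ± 0.47 on the log2 scale (limma adjusted p = 0.0492) and differed by -0.68 in CD11c- eosinophils (adjusted p = 0.610). The Il5ra call was lost without the second CD11c+ library and without either naive library. Csf2ra, the private GM-CSF chain, stood at 307 to 407 FPKM in all 6 eosinophil libraries. It had 71 and 65 FPKM in papain basophils, against 31 and 16 FPKM in naive basophils, and 5 to 14 FPKM in NHC. This basophil difference passed at 1.56 ± 0.41 (adjusted p = 0.0243), but not after quantile normalization or without either papain library or the second naive library.

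The beta chains moved the other way in basophils. Csf2rb, the shared chain, had 158 and 182 FPKM in papain basophils, against 651 and 586 FPKM in naive basophils, a fall by 1.86 ± 0.32 (limma adjusted p = 0.00457). Csf2rb2, which in mice serves IL-3 alone, had 111 and 130 FPKM in papain basophils, against 667 and 616 FPKM in naive basophils, a fall by 2.41 ± 0.29 (adjusted p = 0.00110). In both genes the basophil groups were well apart, and both passed with each of the 4 libraries left out. Eosinophils had 265 to 375 FPKM of Csf2rb and 146 to 227 FPKM of Csf2rb2, and NHC had 2 to 10 FPKM and 4 to 17 FPKM. Basophil markers fell in the same libraries, with 7 of 9 passing as lower. The part of basophil content was not tested in the fall of the receptor chains, nor in the falls in papain basophils among the lists below.

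Il3ra, the private IL-3 chain, had 10 and 73 FPKM in papain basophils and 43 and 48 FPKM in naive basophils, so that the groups overlapped. NHC had 6 to 13 FPKM of it and eosinophils 15 to 39 FPKM. Il9r, the private IL-9 chain, was the exception in being at 3 FPKM or less in every basophil and eosinophil library. In NHC it had 59 FPKM in the 3'UTRKO library, 38 and 29 FPKM after papain and 57 and 25 FPKM in naive mice. Il9r passed as higher in naive NHC than in naive basophils (limma adjusted p = 0.000900) and naive eosinophils (adjusted p = 9.05e-05). Il2rg, the common gamma chain, had 278 to 354 FPKM in NHC and 66 to 191 FPKM in the other cells. Of the 7 chains, 0 passed between papain and naive NHC, 1 rose and 3 fell in basophils, 0 passed in CD11c- eosinophils, and 2 fell in CD11c+ eosinophils. Over all genes, 0.786% passed in NHC, 26% in basophils, 2.24% in CD11c- and 12.1% in CD11c+ eosinophils, and the counts of the lists below stand beside the same shares. None of the genes that passed in the lists described here and in the next paragraphs changed sign under any alternative.

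**Figure D4:**
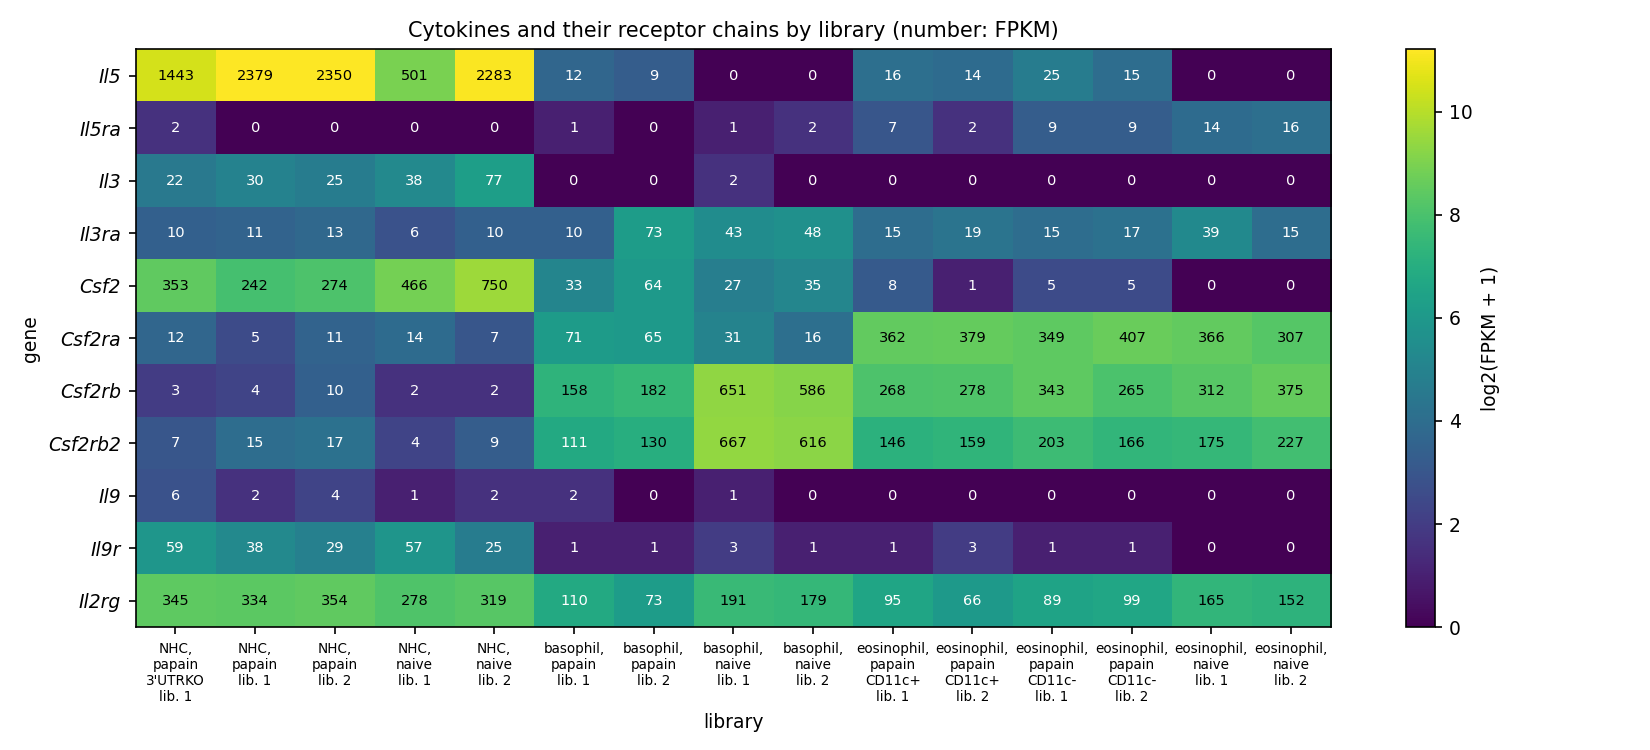
Rows are the 4 cytokines and their 7 receptor chains, columns are the 15 libraries, the colour is log2(FPKM + 1) and the printed number is FPKM. Il5, Csf2 and Il3 are bright in the 5 NHC columns where Csf2ra, Csf2rb and Csf2rb2 are at 17 FPKM or less, and Il9r is highest in the same 5 columns.

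Genes of the signalling path below these receptors were followed as a list. Of 14 JAK-STAT genes, 1 rose and 0 fell in papain against naive NHC, where 0.786% of all genes passed, with a median of 0.53 on the log2 scale beside 0.09 for all genes. The riser was Stat3, a transcription factor of many cytokine receptors, at 153 and 172 FPKM in papain NHC against 52 and 45 FPKM in naive NHC (limma adjusted p = 0.0386), a call lost on leaving out any of the 4 libraries. In basophils 1 rose and 2 fell, where 26% of all genes passed, with a median of -0.40 beside 0.50 for all genes. Bcl2l1, a survival gene, rose to 20 and 59 FPKM in papain basophils, against 9 and 3 FPKM in naive ones, though not without the second papain or the second naive library. Jak2, the kinase bound to the beta chain, fell to 115 and 152 FPKM in papain basophils, against 416 and 393 FPKM in naive ones, and Pim1, a survival kinase, fell as well, though not without the first papain library or either naive library. In eosinophils Socs2, a feedback inhibitor induced by STAT5, was the 1 gene of the list to rise in each papain group, where 12.1% of all genes passed in CD11c+ and 2.24% in CD11c- eosinophils. It had 35 and 38 FPKM in CD11c+ and 35 and 24 FPKM in CD11c- eosinophils, against 9 and 7 FPKM in naive ones (adjusted p = 0.00188 and 0.00857). The Socs2 call in CD11c- eosinophils was lost without the first CD11c- library or either naive library.

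The neighbours in the cytokine cluster varied among themselves. Of 9 neighbours tested, 0 passed between papain and naive NHC. Il13, the mucus and airway cytokine, had 407 and 377 FPKM in papain NHC against 93 and 218 FPKM in naive NHC (limma adjusted p = 0.347). Il4, the type 2 switch cytokine, had 20 and 24 FPKM against 19 and 25 FPKM. In basophils 4 neighbours rose and 2 fell, and the 2 that fell were Il4 and Il13, at 42 and 122 FPKM and at 20 and 71 FPKM after papain, against 353 and 319 FPKM and 169 and 226 FPKM in naive basophils. The fall of Il13 was lost without the first papain library or the second naive library. Basophil markers fell in the same libraries, and the part of basophil content in the falls of Il4 and Il13 was not tested. Against naive eosinophils, where 28.1% of all genes passed, Il13 and Rad50 were among 3 neighbours higher in naive NHC, and Il4 was the 1 neighbour lower. Without the second naive NHC or the second naive eosinophil library, Il13 did not pass there.

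The list of transcription factors known to act on these genes had 20 members. Of these, 0 passed between papain and naive NHC, where 0.786% of all genes passed. Irf4, a factor of type 2 lymphocytes, had 65 and 73 FPKM in papain NHC against 5 and 7 FPKM in naive NHC (limma adjusted p = 0.0784) and 26 FPKM in the 3'UTRKO library. Against naive basophils, where 20.6% of all genes passed, 7 were higher and 5 lower in naive NHC. Against naive eosinophils, where 28.1% passed, 8 were higher and 3 lower. Gata3 and Rora, both needed for innate lymphoid cells, were higher in each. Gata3 had 168 and 273 FPKM in naive NHC, against 2 and 1 FPKM in naive basophils and 0 and 0 FPKM in naive eosinophils. Sfpi1, the myeloid factor PU.1, was lower in each, at 4 and 1 FPKM in naive NHC against 73 and 85 FPKM in naive basophils. In basophils, where 26% of all genes passed, 1 factor rose and 8 fell with papain, with a median of -0.48 beside 0.50 for all genes. In eosinophils Ets1, an ETS family factor of lymphocytes, rose in both papain groups, at 60 and 52 FPKM in CD11c+ and 35 and 67 FPKM in CD11c-, against 10 and 9 FPKM in naive ones. Summed T-cell markers also stood higher in these papain libraries, and the part of other cells in the Ets1 values was not tested.

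Factors that bind AU-rich elements or degrade cytokine RNAs bear on the AUUUA repeats printed above. Of 10, 0 passed between papain and naive NHC. Zfp36 (tristetraprolin), which binds the AUUUA repeat and speeds decay, had 148 FPKM in the 3'UTRKO library, 58 and 81 FPKM in papain NHC and 268 and 105 FPKM in naive NHC (limma adjusted p = 0.338 for papain against naive). The naive library with the lowest Il5 was the one with the highest Zfp36 and also the highest Fos, an immediate early gene, at 592 FPKM against 204 FPKM in the other naive library. The relation of Zfp36 or Fos to the Il5 level was not tested. Zfp36l1, a relative of Zfp36, had 399 and 258 FPKM in naive NHC against 57 and 31 FPKM in naive basophils and 6 and 21 FPKM in naive eosinophils, and it passed as higher in NHC against both. Zc3h12a (regnase-1), an RNase of cytokine transcripts, fell in all 3 papain groups of basophils and eosinophils. It had 64 and 62 FPKM in CD11c+ and 66 and 49 FPKM in CD11c- eosinophils, against 130 and 136 FPKM in naive ones. Each of these 3 calls was lost on leaving out any of 3 libraries.

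Among 11 other cytokines tested, 1 passed between papain and naive NHC. Il2, the T-cell growth factor, fell to 23 and 15 FPKM in papain NHC, against 91 and 99 FPKM in naive NHC, a difference of -2.29 ± 0.30 on the log2 scale (limma adjusted p = 0.0105), and it had 28 FPKM in the 3'UTRKO library. The Il2 call was lost without the second papain library or either naive library, and the summed T-cell markers lay lower in papain NHC as given above. Il2 thus lay lower in papain NHC, as Csf2 and Il3 did without passing. Lif, a relative of IL-6, rose in basophils and in both eosinophil groups. It had 73 and 106 FPKM in papain basophils against 8 and 9 FPKM in naive ones. Il6, an inflammatory cytokine, was far more abundant in basophils than any of the 4 genes. It fell to 1066 and 828 FPKM in papain basophils, against 2713 and 3535 FPKM in naive ones, and rose in CD11c+ eosinophils. The part of basophil content in the Il6 fall was not tested.

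Genes with the pattern most like each cytokine were ranked by Pearson's r of log2(FPKM + 1) over the 15 libraries. Several libraries share a cell type, so that r mainly describes the contrast of NHC with the rest. For Il5 the top 5 of 6419 genes were Spry1 (r = 0.963), Fam108b, Hlf, Il2ra and Ctla2a, and none of them was in the top 5 by Spearman's rho. Il2ra, the CD25 chain used in the NHC gate, had 168 FPKM in the 3'UTRKO library, 228 and 213 FPKM in papain NHC and 85 and 128 FPKM in naive NHC. For Csf2 they were Calca (r = 0.972), Rpl23, Tex2, Zbtb10 and Rps14, of which 2 were in the top 5 by rho. Calca, the gene of calcitonin and the neuropeptide CGRP, had 1245 FPKM in the 3'UTRKO library, 860 and 780 FPKM in papain NHC and 450 and 1438 FPKM in naive NHC.

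For Il3 the top 5 were Dach2 (r = 0.971), Zc3hav1, Fam19a3, Fbxl21 and Bmp7, with 3 shared by rho, and Il2 entered the top 5 by rho. Il3 had 110 genes at r of 0.9 or more, Csf2 had 102 and Il5 had 120. For Il9, whose values span only 0 to 6 FPKM, the top 5 were Ret (r = 0.962), Rpl28, Tmem135, Pgm2l1 and Cd96, with 3 shared by rho, and 7 genes reached 0.9. Ret, the receptor of the GDNF family, had 15 FPKM in the 3'UTRKO library, 9 and 13 FPKM in papain NHC and 6 and 7 FPKM in naive NHC.

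Promoters of the 4 genes, from 250 bases before to 50 after the RefSeq start site on GRCm38.p6, were searched on both strands for 6 motifs of the factor families above. A stretch from each is shown with its motif in capitals, AGATAA (bound by the family of Gata3) in Csf2 and Il3, GGAAA (NFAT family) in Il5 and TGANTCA (AP-1 family) in Il9:
Il5 (chr11:53720669-53720698, + strand): acccagggcactGGAAAccctgagtttcag
Csf2 (chr11:54250120-54250149, - strand): attAGATAAtgaggtggacttgtgagaagt
Il3 (chr11:54267363-54267392, - strand): aggttccatgtcAGATAAagctgcttctga
Il9 (chr13:56482379-56482408, - strand): cctttgtcaagTGACTCAgactgatttttt

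AGATAA was found in 11.2% of 32851 promoters and, among the 4 genes, in Csf2 and Il3, whereas the Il5 and Il9 windows held none. GGAAA was found in all 4 genes and in 61.3% of promoters. TGANTCA was found in Il9 and in 7.81% of promoters. The ETS family motif AGGAAG, which can overlap the NFAT motif in part, was found in Il5 and Il3 and in 35.4% of promoters. The TATA box letters TATAAA, held by 13.6% of promoters, and the STAT family motif TTCNNNGAA, held by 8.3%, were found in none of the 4 windows, which says only that these letters are not there. A match describes the sequence and does not show that a factor binds.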

How the data were processed

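RNA-seq was measured in 15 libraries of poly(A) RNA from sorted lung cells, in 8 groups of 2 libraries each except the 3'UTRKO natural helper cells with 1. The authors deposited 1 table of 21110 genes. Its values are a whole-number expression score per gene and library, read here as FPKM rounded by the authors. The unit rests on the values and on Cufflinks 1.3.0, which stands with TopHat 1.4.0 and the mm9 build in the submitters' processing notes. Their settings and annotation are not given in the sources used here. Read counts, and so depth, are unknown.

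In 1008 values, digit-grouping commas were removed, and 3 entries next to 0 were set to 0. The 25 symbols turned into dates by a spreadsheet were kept as separate genes. Genes with at least 1 FPKM in at least 2 libraries (14257) were fitted on log2(FPKM + 1) with limma 3.58.1 (R 4.3.3), with 1 coefficient per group, trended moderated variance (7 residual and 1.866 prior degrees of freedom), two-sided p-values and adjustment by Benjamini and Hochberg's method across those genes. The fit was tested on simulated data. Sequences came from RefSeq promoters (GRCm38.p6) and GENCODE 3' UTRs (GRCm38), and no coordinate was mapped to mm9.

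The 4 genes, their pathway lists and the marker lists were chosen with earlier results of these data known. Named genes are the 4 members and their receptor chains, the 5 genes most correlated with each member, and of each list up to 3 members that passed with the largest change. Other list members named in the text were chosen after their values were seen. Alternatives were a pseudocount of 0.5, no filter, median-ratio scaling, quantile normalization, a fit of the compared groups only, a replicate block and leaving out each library in turn.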

Additional observations from a re-analysis of the deposited data

Results flagged for a closer look

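The papain and naive values of Csf2 lay in opposite order in 2 cell types, and neither difference passed on its own. In NHC it had 242 and 274 FPKM after papain and 466 and 750 FPKM in naive mice (limma adjusted p = 0.530). In CD11c- eosinophils it had 5 and 5 FPKM after papain and 0 and 0 FPKM in naive mice (limma adjusted p = 0.0727). The difference between the responses was -3.78 ± 0.85 on the log2(FPKM + 1) scale, NHC minus eosinophils, and its limma adjusted p of 0.0949 missed the threshold. The size of that value depends on the pseudocount, because naive eosinophils were listed at 0, and it was -4.66 with a pseudocount of 0.5. Over the alternatives run, its adjusted p lay between 0.00351 and 0.298.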

How the results depend on the processing

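Il5 kept its call in papain basophils and CD11c+ eosinophils under every alternative run. Of 4 members, the count passing was 2 rather than 1 in both papain eosinophil groups against naive with a pseudocount of 0.5 or quantile normalization, and in CD11c- eosinophils with only the compared groups fitted. The member gained was Csf2. Its differences were 3.46 in CD11c- and 2.84 in CD11c+ with a pseudocount of 0.5, 2.35 and 1.90 after quantile normalization, and 2.58 in CD11c- with compared groups only. With a pseudocount of 0.5, 1 member (Il5) rather than 0 passed for the response of NHC minus basophils and of NHC minus CD11c- eosinophils. With only the compared groups fitted, 1 rather than 0 passed for 3'UTRKO against papain NHC (Il5, -0.71, a void p because 1 pair of libraries sets its spread) and for NHC minus CD11c- eosinophils. In the same fit 2 rather than 4 passed for papain NHC against CD11c+ eosinophils, and 0 rather than 1 for papain basophils against either eosinophil group. Changes of sign were found only where nothing passed, with 0.19 for Il3 in NHC minus basophils (pseudocount 0.5) and -0.067 for Il9 and -0.0145 for Csf2 in basophils (quantile normalization).

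Leaving out 1 library at a time gave, for papain against naive NHC, 0 to 1 members passing, with Il5 between 0.0506 and 2.24. For basophils 1 to 2 passed, with Il9 between -0.50 and 1.08 and Il3 between -1.58 and 0. For CD11c+ eosinophils 1 to 2 passed, with Csf2 between 1.00 and 3.17. For CD11c- eosinophils 0 to 1 passed, with Il5 between 4 and 4.70. For NHC minus basophils and for NHC minus CD11c- eosinophils 0 to 1 passed, and for papain basophils against CD11c- or CD11c+ eosinophils 0 to 1. Between CD11c+ and CD11c- eosinophils Csf2 lay between -1.58 and 0.58. Il9 lay between -0.42 and 1.16 for NHC minus basophils and between -0.50 and 1.08 for basophils minus CD11c- eosinophils, and Il3 lay between -0.96 and 0.63 for NHC minus basophils.

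Titles number the libraries 1 and 2, but no label pairs them, and same-numbered libraries deviated together little (correlations of -0.153 to 0.116 over 14257 genes). Under a replicate block no member call changed. Il5 in papain against naive NHC was 1.14 with an adjusted p of 0.579, and its adjusted p in basophils was 0.00732. Over all genes, the calls under the block numbered 78 rather than 112 in NHC and 2 rather than 8 between the eosinophil groups. By Spearman's rho, 0 of the 5 genes named for Il5, 3 for Il9, 2 for Csf2 and 3 for Il3 stayed in the top 5.

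With 2 libraries a group, whole-number FPKM and unknown depth, differences below a few FPKM (all of Il9, Il3 outside NHC) cannot be resolved.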
